A study of Mus musculus with 10 samples.

Results

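Expression of 8 regulators of hormone-sensing luminal cells was described in sorted epithelial cells of the mouse mammary gland. They are the steroid receptors Esr1 and Pgr, the transcription factors Foxa1, Gata3 and Tbx3, the transcriptional co-regulator Cited1, the oestrogen-induced gene Greb1 and the ligand Tnfsf11. The set was chosen by name, with earlier results of these arrays known, and each gene is represented by its brightest probe set. All 8 were on the array, among 19935 genes with a probe set of their own symbol. Each had 1 probe set, and all 8 passed the filter on dim probe sets that left 15815 genes for testing.

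The cells came from virgin female littermates aged 8 to 12 weeks that shared a cage, either control mice or Pygo2 SSKO mice, which the series title calls Pygo2-null. Pygo2 encodes a co-factor of beta-catenin in Wnt signalling that reads methylated histone H3. The labels name neither the strain nor the promoter of any Cre, and they do not spell out SSKO. Cells carrying CD31, CD45 or TER119 (endothelial, blood and erythroid markers) were gated out. A CD29-high, CD24-positive population holding the mammary stem and basal cells, called basal here, was sorted from both genotypes. A CD29-low, CD24-positive, CD61-negative mature luminal population was sorted from control mice. The basal population was measured on 4 arrays from control and 3 from SSKO mice, and the luminal population on 3 arrays from controls. SSKO luminal cells were not analysed here. The labels call the arrays biological replicates without giving the number of mice behind each, so the spread that p-values rest on may be partly technical.

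In the mammary gland, oestrogen and progesterone act on a subset of luminal cells that carry their receptors. Esr1 drives growth of the ducts at puberty, and Pgr, which oestrogen induces, drives side branching. FOXA1 opens chromatin for ESR1, GATA3 and TBX3 maintain luminal identity, and CITED1 binds ESR1 as a co-activator. Receptor-positive cells mostly do not divide in response to hormone but make ligands such as TNFSF11 (RANKL). It acts through its receptor TNFRSF11A (RANK) on neighbouring basal and luminal progenitor cells.

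Values are log2(intensity + 16) of the deposited probe set intensities, called levels here, and a difference between levels is a log2 difference. Levels of separate genes are not set against each other, since probe sets differ in brightness. A gene was called when its limma p-value, adjusted by Benjamini-Hochberg over all 15815 genes, was under 0.05. Array medians of the intensity lay between 205 and 228. The targeted gene Pygo2 was at 8.11 to 9.09 in control and 5.86 to 6.99 in SSKO basal arrays, with a difference of -2.34 (SE 0.32, adjusted p = 0.0441). It was not determined here whether that probe set detects the deleted region, and the call held in 10 of 22 alternatives. All 16 basal and myoepithelial markers, among them Krt5, Krt14 and Trp63, were called lower in luminal cells. They include Itgb1, which encodes CD29, so its direction is not independent of the sort. All 12 mature luminal markers measured, among them Krt8 and Krt18, were called higher. Of 13 luminal progenitor and alveolar markers, 7 were also called higher there, among them Aqp5 (4.80), Kit (3.06) and Elf5 (2.75). In the same list 2 were called lower, among them Itgb3 (-2.47). Itgb3 encodes CD61, and the luminal cells were sorted as CD61-negative. Of all genes tested, 24.6% were called higher in luminal cells and 19.7% lower. Luminal array 3 had a mean over the basal markers of 9.65, against 8.32 and 7.87 in luminal arrays 1 and 2. Means over 12 endothelial markers were 10.08, 11.04 and 10.10 in control basal array 1 and SSKO basal arrays 1 and 3, and between 8.28 and 8.87 in the other 4 basal arrays.

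Promoter sequence is shown for Foxa1, Pgr and Cited1, whose mean levels in luminal cells exceeded those in control basal cells by over 4 log2 units. The RefSeq promoter table (build GRCm38.p6) covers 250 bases before to 50 after each annotated start and matched 7 of the 8 genes. It holds 11 windows for these, of which 1 for Foxa1, 1 for Pgr and 3 for Cited1. Capitals mark matches, on either strand, to the forkhead sequences TGTTTAC (Foxa1) and TATTTAC (Pgr) and to the nuclear receptor sequence AGGTCA (Cited1). These motifs were found in 3.65%, 3.04% and 16.3% of all 32851 promoter windows.
Foxa1, minus strand, chr12:57546062-57546361: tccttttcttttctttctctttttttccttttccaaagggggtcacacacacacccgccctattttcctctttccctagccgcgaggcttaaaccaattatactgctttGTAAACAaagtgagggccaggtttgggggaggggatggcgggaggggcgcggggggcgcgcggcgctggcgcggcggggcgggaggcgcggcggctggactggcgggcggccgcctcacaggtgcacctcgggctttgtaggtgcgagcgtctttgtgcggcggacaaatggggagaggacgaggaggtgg
Pgr, plus strand, chr9:8899583-8899882: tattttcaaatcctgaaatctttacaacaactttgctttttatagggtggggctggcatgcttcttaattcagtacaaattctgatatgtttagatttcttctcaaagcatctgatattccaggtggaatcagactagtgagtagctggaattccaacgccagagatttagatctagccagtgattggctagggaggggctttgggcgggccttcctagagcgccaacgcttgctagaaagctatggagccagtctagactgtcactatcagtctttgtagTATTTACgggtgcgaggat
Cited1, minus strand, chrX:102250727-102251026: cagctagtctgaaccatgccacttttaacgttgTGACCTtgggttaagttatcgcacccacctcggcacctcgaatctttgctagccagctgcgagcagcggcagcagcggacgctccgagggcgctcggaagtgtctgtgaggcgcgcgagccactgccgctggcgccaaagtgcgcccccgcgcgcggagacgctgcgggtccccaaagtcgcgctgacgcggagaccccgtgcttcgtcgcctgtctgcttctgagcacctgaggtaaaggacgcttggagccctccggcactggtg

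The other 2 Cited1 windows held none of the motifs searched. AGGTCA was also present in 1 of the 2 Greb1 windows, and the TCF/LEF sequence CTTTGAT, found in 3.73% of all windows, in the other. None of the 11 windows held the oestrogen response element GGTCANNNTGACC (0.07% of all windows), which can overlap a match to AGGTCA, or the GATA sequence AGATAA (11.2%). A match is a description of the letters only.

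Both hormone receptors were far higher in luminal than in basal cells, and neither differed detectably between SSKO and control basal cells. Esr1, the oestrogen receptor alpha, had levels of 11.81, 11.72 and 12.42 in control luminal arrays 1 to 3. In control basal arrays 1 to 4 it stood at 8.41, 9.42, 9.12 and 10.06, and in SSKO basal arrays 1 to 3 at 8.82, 8.64 and 9.28. Every luminal array lay above every basal array, whereas the basal groups overlapped, with the widest spread among control arrays. Esr1 was 6.63-fold higher in luminal than in control basal cells, with a difference of 2.73 (SE 0.33, 95% interval 1.99 to 3.46, adjusted p = 5.25e-05). Between SSKO and control basal cells the difference was -0.34 (SE 0.33, 95% interval -1.07 to 0.40, adjusted p = 1.00), an interval that leaves room for a change of up to 1.07 downward. Without control array 4, the highest of the basal arrays, it was -0.068, without control array 1, the lowest, it was -0.62, without SSKO array 3 it was -0.52, and without the 3 arrays brightest for endothelial markers it was -0.89. As these are bulk samples, fewer cells expressing a gene and less RNA per cell cannot be told apart.

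Pgr, the progesterone receptor, had levels of 12.23, 12.40 and 12.15 in luminal arrays, 8.13, 7.84, 7.92 and 8.48 in control basal arrays and 8.12, 8.14 and 8.80 in SSKO basal arrays. The luminal arrays lay at least 3.36 above any basal array, and SSKO array 3 was the highest of the basal arrays. Pgr rose by 4.17 (SE 0.20, 95% interval 3.73 to 4.61, adjusted p = 4.24e-08) in luminal cells, or 18.0-fold. The SSKO difference of 0.26 (SE 0.20, 95% interval -0.18 to 0.70, adjusted p = 1.00) did not pass. It was 0.038 without SSKO array 3 and 0.063 without the 3 arrays brightest for endothelial markers.

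Foxa1, the pioneer factor that opens chromatin for steroid receptors, showed the largest luminal difference of the 8 genes and an intermediate level in SSKO basal cells. It was at 14.55, 14.52 and 14.40 in luminal arrays. Control basal arrays had 8.87, 9.16, 9.44 and 9.09 and SSKO basal arrays 10.64, 9.89 and 10.23. All 3 SSKO arrays lay above all 4 control arrays, with a gap of 0.45 between the nearest, and all lay far under the luminal arrays. Control basal cells had a mean of 9.14 ± 0.23 (SD, n = 4), below the SSKO mean of 10.26 ± 0.38 (SD, n = 3), and luminal cells one of 14.49 ± 0.077 (SD, n = 3). Foxa1 rose by 5.35 (SE 0.18, 95% interval 4.95 to 5.75, adjusted p = 7.82e-09) in luminal cells, a 40.7-fold difference that was the 31st largest in size among the 15815 genes. In SSKO against control basal cells its difference of 1.11 (SE 0.18, 95% interval 0.71 to 1.51, adjusted p = 0.105) had the 12th smallest p but did not pass over all genes, the interval being for this gene alone. It passed when SSKO array 2 was left out (1.29, adjusted p = 0.0249) and in none of the other alternatives. Without the 3 basal arrays brightest for endothelial markers, which leaves 1 SSKO array, the Foxa1 difference was 0.66. The part of endothelial cells in the Foxa1 values was not tested.

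Gata3, a zinc-finger factor needed for luminal identity, differed little between populations. Its levels were 12.13, 12.23 and 12.11 in luminal, 11.38, 11.81, 11.71 and 11.66 in control basal and 11.57, 11.66 and 11.69 in SSKO basal arrays. The luminal arrays lay above all basal arrays, but only by 0.31 at the nearest. The luminal rise of 0.52 (SE 0.12, 95% interval 0.25 to 0.79, adjusted p = 0.00476) was called, at 1.43-fold. SSKO and control basal means were both 11.64, and the SSKO difference was 0.0012 (SE 0.12, 95% interval -0.27 to 0.27, adjusted p = 1.00), so a change of over 0.27 in either direction lies outside that interval.

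Tbx3, a T-box factor of hormone-receptor-positive luminal cells, lay between these patterns. It was at 12.21, 11.81 and 12.15 in luminal, 10.22, 10.99, 10.63 and 10.93 in control basal and 10.60, 10.65 and 10.74 in SSKO basal arrays. The 3 SSKO arrays sat inside the range of the control arrays. Tbx3 rose by 1.36 (SE 0.18, 95% interval 0.96 to 1.77, adjusted p = 1.14e-04) in luminal cells, or 2.57-fold, and its SSKO difference was -0.029 (SE 0.18, 95% interval -0.44 to 0.38, adjusted p = 1.00).

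Cited1 was the only gene of the 8 called in SSKO against control basal cells. Its levels were 8.25, 7.97, 7.96 and 8.22 in control basal arrays, 9.97, 9.43 and 9.56 in SSKO basal arrays and 12.57, 11.97 and 12.32 in luminal arrays. The 3 groups formed separate steps, with 1.18 between the highest control and the lowest SSKO array and 2.00 between the highest SSKO and the lowest luminal array. Cited1 rose by 1.56 (SE 0.18, 95% interval 1.17 to 1.94, adjusted p = 0.0103) in SSKO against control basal cells, or 2.94-fold. It was 18.2-fold higher in luminal than in control basal cells, with a difference of 4.19 (SE 0.18, 95% interval 3.80 to 4.57, adjusted p = 1.82e-08). SSKO basal cells lay under luminal cells, with a difference of -2.63 (SE 0.19, 95% interval -3.04 to -2.22, adjusted p = 1.08e-06). Without control array 2 the SSKO call was lost (1.51, adjusted p = 0.0564), as it was without SSKO array 3 (1.60, 0.0662). It was also lost, at 1.39 and an adjusted p of 1.00, when the 3 basal arrays brightest for endothelial markers were left out together, a fit with 1 SSKO array that is assumed to vary like the other groups. SSKO array 2, whose endothelial mean of 8.28 was the lowest of the basal arrays, had a Cited1 level of 9.43, above every control array. This is 1 array, and the part of endothelial cells in the Cited1 values was not tested.

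Greb1, a target and co-factor of the oestrogen receptor, varied widely among the control basal and among the luminal arrays. It was at 6.60, 7.21, 8.48 and 9.12 in control basal arrays, 6.65, 6.49 and 7.04 in SSKO basal arrays and 6.81, 7.87 and 9.67 in luminal arrays. Control arrays 2 to 4 and luminal arrays 2 and 3 stood above all 3 SSKO arrays, but control array 1 and luminal array 1 lay within the SSKO range. Its residual SD of 1.09 was exceeded by 0.544% of the genes tested, against a median of 0.21. Neither the luminal difference of 0.26 (SE 0.67, 95% interval -1.22 to 1.74, adjusted p = 0.802) nor the SSKO difference of -1.13 (SE 0.67, 95% interval -2.61 to 0.36, adjusted p = 1.00) passed. Without luminal array 3 the luminal difference turned to -0.52.

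Tnfsf11, the RANK ligand through which progesterone acts on neighbouring cells, did not separate the groups. Its levels were 8.89, 9.49, 9.30 and 8.70 in control basal, 8.91, 9.40 and 9.14 in SSKO basal and 9.36, 9.73 and 8.92 in luminal arrays, and all 3 groups overlapped. The luminal difference was 0.25 (SE 0.23, 95% interval -0.27 to 0.76, adjusted p = 0.451) and the SSKO difference 0.059 (SE 0.23, 95% interval -0.45 to 0.57, adjusted p = 1.00). A rise of over 0.76 in the signal of this probe set in luminal cells lies outside the first interval. How far that signal follows Tnfsf11 RNA was not determined here.

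**Figure D1:**
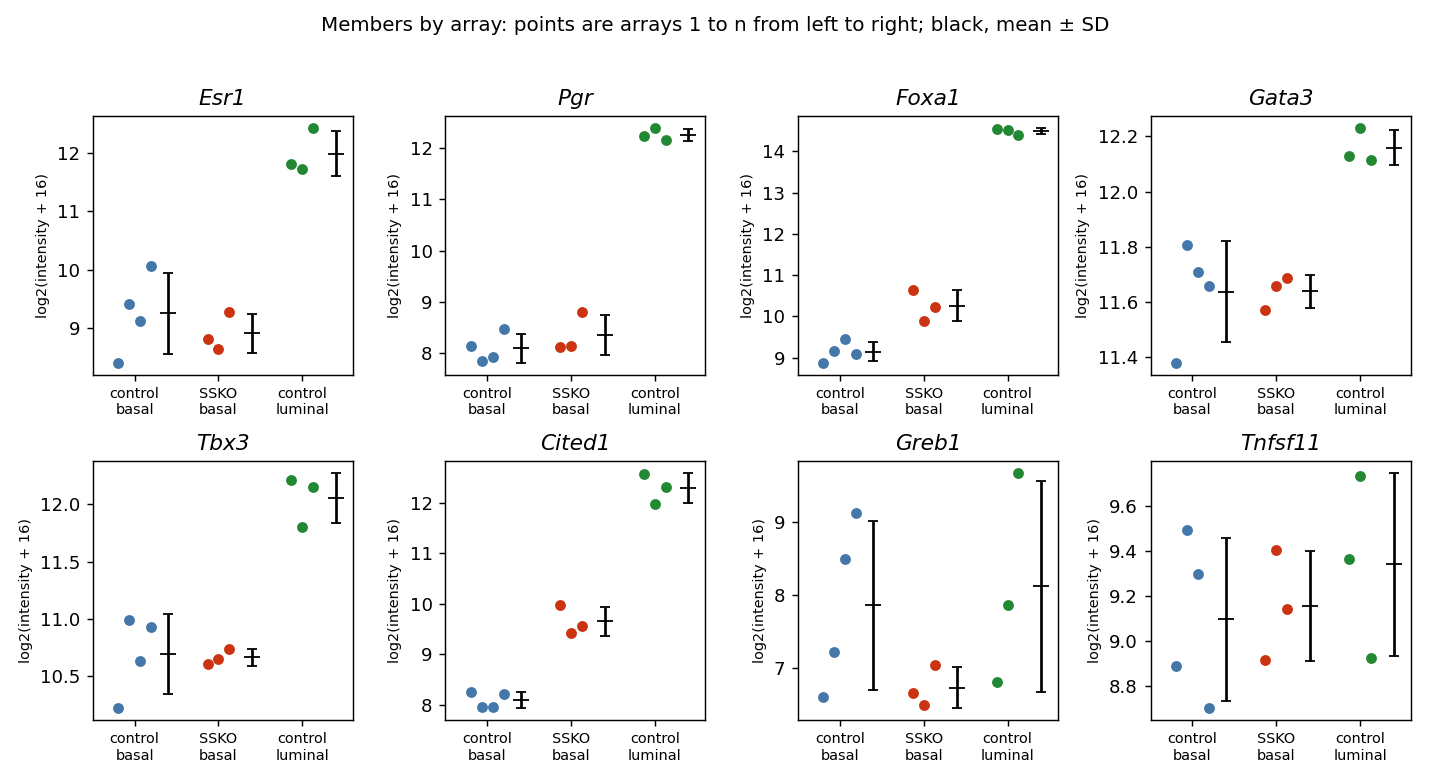
Levels of the 8 genes as log2(intensity + 16) on the vertical axis, 1 panel per gene with its own scale, for 4 control basal (blue), 3 SSKO basal (red) and 3 control luminal (green) arrays; black bars are mean ± SD. Luminal arrays stand above all basal arrays in 6 panels, Cited1 and Foxa1 have SSKO arrays above all control basal arrays, and the groups overlap for Greb1 and Tnfsf11.

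Counted together, 6 of the 8 genes were called higher in luminal than in control basal cells, where 24.6% of all genes tested were called higher. The 6 were Esr1, Pgr, Foxa1, Gata3, Tbx3 and Cited1, and their groups did not overlap, as for 25.8% of genes. The median difference over the 8 was 2.05, against 0.067 over all genes. In SSKO against control basal cells limma called 1 of the 8 higher and 0 lower, where 0.0316% of genes were called higher and 0.00632% lower. At an unadjusted p under 0.05 there were 2 of the 8, both higher, against 3.03% of all genes in either direction. Cited1 and Foxa1 had SSKO arrays wholly above the control arrays, as for 2.45% of genes, and the median difference was 0.030, against 0.0078 over all genes. Against luminal cells, SSKO basal cells were called lower for the same 6 genes as above, where 23.3% of genes were called lower, and their groups did not overlap, as for 30.2% of genes. Those differences ran from -4.24 for Foxa1 to -0.52 for Gata3. The 3 comparisons share arrays and are not independent.

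**Figure D2:**
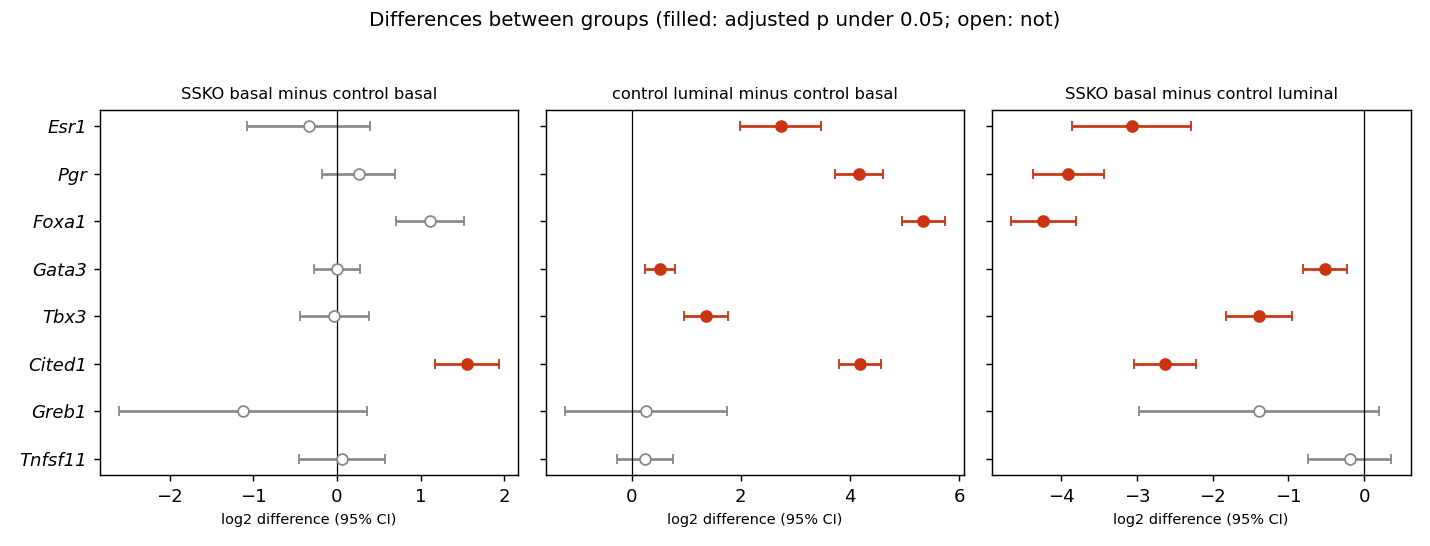
Log2 differences of the 8 genes (points) with 95% confidence intervals (bars) in the 3 comparisons; filled red points had an adjusted p under 0.05. In the SSKO against control panel Cited1 alone is filled, at 1.56, with Foxa1 open at 1.11; in the luminal panel 6 genes are filled, from 0.52 for Gata3 to 5.35 for Foxa1.

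The 8 genes differed in which array was high or low among the 7 basal arrays. Control array 1 was lowest for 4 of them, namely Esr1, Foxa1, Gata3 and Tbx3. Control array 2 was highest for Gata3, Tnfsf11 and Tbx3, control array 4 for Esr1 and Greb1, SSKO array 1 for Foxa1 and Cited1, and SSKO array 3 for Pgr. The receptors and their co-regulators did not share 1 order over the basal arrays.

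Genes with the most like pattern were sought by centring each gene on its own mean over the 10 arrays and taking the smallest root mean square difference. For Foxa1 this was Ttc6, a tetratricopeptide repeat gene, at 0.19 log2 units, followed by Mlph, a melanosome transport protein, at 0.28. Ttc6 is also the gene next to Foxa1 on chromosome 12 in the RefSeq annotation. It ran from 5.44 to 5.75 in control basal arrays to 6.10 to 6.59 in SSKO basal and 10.56 to 11.05 in luminal arrays, so its basal groups, like those of Foxa1, did not overlap. Its basal levels lay under 6.74, the level of the filter, so its differences of 0.85 (adjusted p = 0.236) in SSKO basal and 5.26 (adjusted p = 5.39e-09) in luminal cells understate any change.

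For Cited1 the most like genes were R3hdml (0.21) and the cation channel Trpc6 (0.29). R3hdml was at 6.59 to 7.06 in control basal, 7.99 to 8.87 in SSKO basal and 11.03 to 11.76 in luminal arrays. Its SSKO difference of 1.62 had an adjusted p of 0.0551, and it passed without SSKO array 2 (1.88, 0.00698). Trpc6 was at 7.09 to 7.35, 8.00 to 8.56 and 10.91 to 11.45 in the same order of groups, with an SSKO difference of 1.07 (adjusted p = 0.0934) that passed without SSKO array 2 (1.21, 0.0280). Trpc6 lies next to Pgr on chromosome 9 in the annotation, not next to Cited1. Pgr itself was most like the zinc-finger gene Zbtb8a (0.20) and the nuclear export factor Nxf7 (0.22), whose basal groups overlapped as those of Pgr did.

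**Figure D3:**
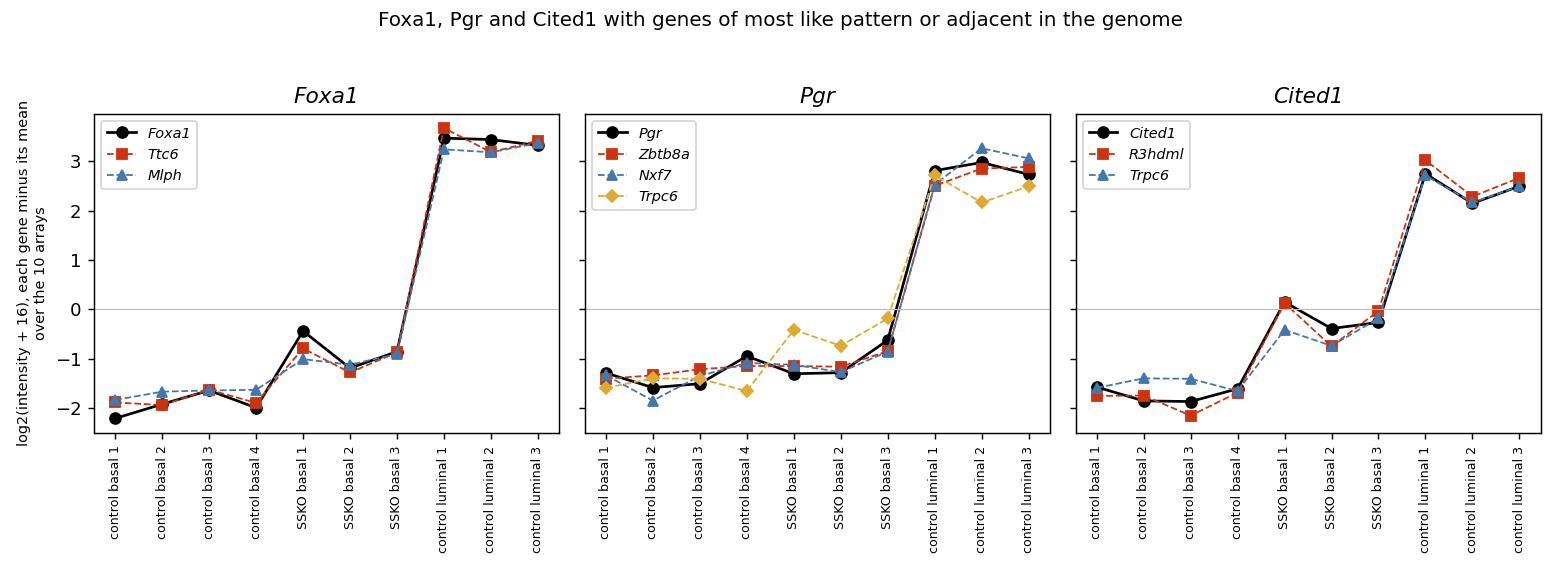
Levels of Foxa1, Pgr and Cited1 (black) and of the genes most like them or adjacent in the genome (coloured), each minus its own mean over the 10 arrays, in log2 units, with 1 position per array. Ttc6 and Trpc6 were picked for likeness to Foxa1 and Cited1 over these same arrays. They lie close to them by that choice, but do not keep their order of arrays within every group. Trpc6 lies above its genomic neighbour Pgr in all 3 SSKO basal arrays.

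Among the other regulators, Esr1 was most like the transporter Abcc3 (0.25) and Tmem30b (0.30), both lowest among control arrays in array 1 and highest in array 4, as Esr1 was. Gata3 was most like Maco1 and Calm4 (both 0.08), and Tbx3 like Cnnm2 (0.13) and Ccdc88c (0.17). Tnfsf11 was most like Prss42 (0.096) and Gpr62 (0.11), which like it did not separate the groups. The gene most like Greb1 was the lipid droplet coat protein Plin2, at a wider 0.58, with levels of 9.70, 10.14, 10.87 and 10.93 in control basal arrays and 9.78, 10.34 and 11.71 in luminal arrays, followed by Ankrd22 at 0.60. In both Greb1 and Plin2, control arrays 3 and 4 stood above control arrays 1 and 2, and luminal array 3 above the other luminal arrays.

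Paralogs of the 8 genes did not follow them as a group. Of 21 paralogs tested, 4 were called higher and 5 lower in luminal cells (median -0.0023), where 24.6% and 19.7% of all genes were. The oestrogen-related receptors rose with Esr1, Esrrb by 3.79 (SE 0.35, adjusted p = 5.34e-06), Esrrg by 1.60 (SE 0.14, adjusted p = 4.01e-06) and Esrra by 0.44 (SE 0.12, adjusted p = 0.00891). Esr2, the oestrogen receptor beta, was under the filter and not tested, at 6.08 to 6.88 in control basal and 6.44 to 6.81 in luminal arrays. The glucocorticoid receptor Nr3c1 was lower in luminal cells, with a difference of -1.55 (SE 0.17, adjusted p = 2.58e-05). Tbx2, a repressor closely related to Tbx3, went the opposite way to it, with a luminal difference of -2.49 (SE 0.28, adjusted p = 2.89e-05). Cited4 was higher, at 0.83 (SE 0.18, adjusted p = 0.00247), and Cited2 lower, at -1.01 (SE 0.24, adjusted p = 0.00487). Foxa3 had a difference of -1.37 (SE 0.23, adjusted p = 4.83e-04), Foxa2 one of 0.00050 (SE 0.11), and none of the 5 other GATA factors tested was called, with differences from -0.60 for Gata6 to 0.31 for Gata5. In SSKO basal cells limma called 0 paralogs (1 at an unadjusted p under 0.05), and the SSKO arrays lay above all control arrays for Tbx4 (0.28) and Tnfsf15 (0.30), as for 2.45% of genes.

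Among genes that carry the hormone signal between cells, more were called lower than higher in luminal cells. Of 13 paracrine ligands and receptors tested, 7 were called lower and 4 higher in luminal cells (median -0.95), where 19.7% and 24.6% of all genes were. Tnfrsf11a, the receptor for Tnfsf11, had levels of 6.98, 6.91 and 7.51 in luminal arrays and 9.33, 9.68, 9.52 and 9.55 in control basal arrays, a difference of -2.39 (SE 0.17, adjusted p = 7.32e-07). The receptors Egfr and Igf1r were lower by 2.64 (SE 0.30, adjusted p = 2.89e-05) and 2.62 (SE 0.25, adjusted p = 8.26e-06). Wnt4, a ligand induced by progesterone, was higher, with levels of 11.30, 11.27 and 11.77 in luminal arrays against 8.68, 8.70, 8.98 and 10.24 in control basal arrays, and Fgfr2 rose by 0.96 (SE 0.12, adjusted p = 7.73e-05). Limma called 0 of these genes in SSKO basal cells (0 at an unadjusted p under 0.05), where Tnfrsf11a differed by 0.029 and Wnt4 by 0.050. Areg, Calca and Prlr had no probe set with a single symbol and were not analysed here.

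Known oestrogen and progesterone targets went both ways. Of 16 tested, 7 were called higher and 5 lower in luminal cells (median -0.051), where 24.6% and 19.7% of all genes were. Stc2, a secreted glycoprotein, rose by 3.58 (SE 0.33, adjusted p = 5.76e-06) and the transcription factor Myb by 2.99 (SE 0.34, adjusted p = 3.10e-05), whereas Id4, an inhibitor of basic helix-loop-helix factors, had a difference of -5.26 (SE 0.19, adjusted p = 8.85e-09) and the chemokine Cxcl12 one of -3.60 (SE 0.34, adjusted p = 7.18e-06). All 8 fibroblast markers were also called lower in luminal cells (median -3.29). The part of fibroblasts in the Cxcl12, Egfr and Igf1r values was not tested. In SSKO basal cells limma called 0 of the 16 hormone targets (1 at an unadjusted p under 0.05). The cell cycle gene Ccnd1 had the smallest p, with a difference of 0.89 (SE 0.38, adjusted p = 1.00) and levels of 11.53, 9.50, 9.92 and 10.44 in control and 11.52, 11.28 and 10.91 in SSKO basal arrays.

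Most of the other steroid receptors and cofactors were not called in luminal cells, where 24.6% of all genes were called higher and 19.7% lower. Of 17 tested, 1 was called higher in luminal cells, the co-activator Ncoa2 (0.58), and 4 were called lower, among them Nr3c1, the membrane-associated progesterone-binding protein Pgrmc2 (-0.74) and the chaperone Hsp90aa1 (-0.51). Limma called 0 in SSKO basal cells (0 at an unadjusted p under 0.05), with differences from -0.34 to 0.095. For Nrip1 (-0.13), also among the hormone targets, the SSKO arrays lay below all control arrays. Against the same shares of all genes, 9 of 16 other transcription factors of luminal cells were called higher, such as Msx2 (3.85) and Trps1 (1.59). Another 6 were called lower, such as Cebpb (-2.02) and Lmo4 (-1.85). In SSKO basal cells these ran from -0.22 for Elf3 to 0.44 for Msx2, with 0 called by limma (0 at an unadjusted p under 0.05).

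**Figure D4:**
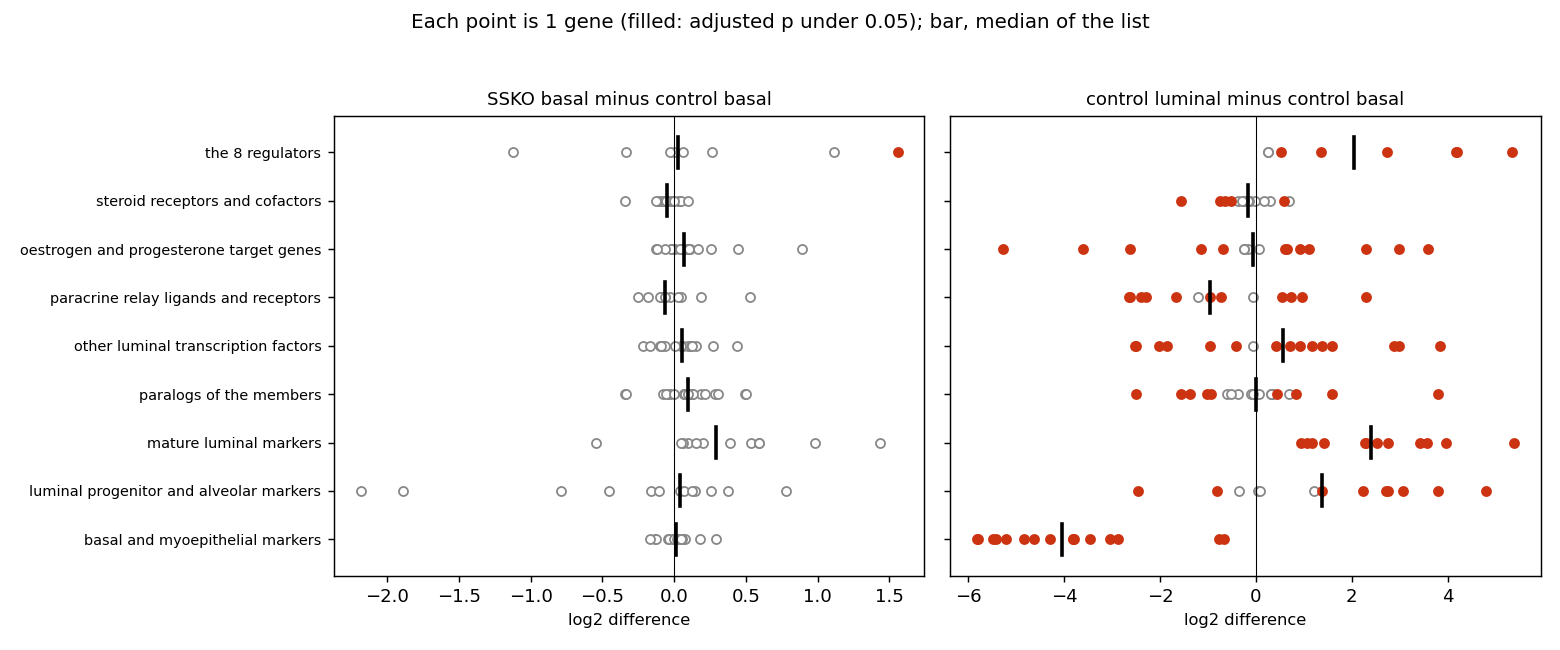
Log2 differences of single genes (points) in SSKO basal against control basal cells (left) and control luminal against control basal cells (right), on separate scales, for the 8 regulators and 8 gene lists; filled red points had an adjusted p under 0.05 and black bars are list medians. In the left panel only Cited1 is filled; in the right panel mature luminal markers are all filled above 0, basal markers all filled below 0, and the hormone target and cofactor lists lie on both sides.

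The mean over other luminal markers, like Cited1 and Foxa1, was higher in every SSKO basal array than in any control basal array. Over 12 mature luminal markers, which hold none of the 8 genes but share Wnt4 and Spdef with other lists, the mean level was 9.74 to 10.12 in control basal, 10.24 to 10.42 in SSKO basal and 12.43 to 12.53 in luminal arrays. In SSKO against control basal cells 11 of the 12 had a difference above 0 and limma called 0. The median was 0.29, against 0.0078 over all genes. At an unadjusted p under 0.05, 5 were higher and 1, the mucin Muc1, lower, where 3.03% of all genes passed in either direction. Krt19, a keratin of simple epithelia, was at 9.87, 10.06, 10.28 and 10.71 in control and 11.49, 11.35 and 12.15 in SSKO basal arrays, a difference of 1.44 (SE 0.22, adjusted p = 0.0934). The tight junction genes Cldn4, Cldn7 and Cldn3 had differences of 0.98, 0.59 and 0.59. They and Krt19, 4 of the 12, had all SSKO arrays above the controls, as for 2.45% of genes. Krt8 differed by 0.097 and Muc1 by -0.54. The dimmest of the 12 in control basal cells was Prom1, at a mean of 6.85.

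Means over markers of luminal progenitor and alveolar cells overlapped between the basal groups, at 8.35 to 9.62 in control and 8.49 to 9.22 in SSKO arrays. Single genes of that list went both ways, with 7 of 13 above 0 and 0 called by limma. Aqp5 (0.78) lay wholly above the controls, as for 2.45% of genes. Csn3 (-0.79) lay wholly below, and the share of all genes that did so is not given here. At an unadjusted p under 0.05 there were 1 higher and 1 lower, Aqp5 and Csn3, where 3.03% of all genes passed in either direction. So did the means for basal and myoepithelial cells (12.52 to 12.67 and 12.49 to 12.68) and for fibroblasts (10.14 to 11.50 and 9.89 to 10.49). Of the 16 basal and myoepithelial markers limma called 0 (0 at an unadjusted p under 0.05). Among them 2, Acta2 (0.074) and Tagln (0.18), had all SSKO arrays above the controls, as for 2.45% of genes. Endothelial markers had differences above 0 in all 12, with overlapping means of 8.39 to 10.08 and 8.28 to 11.04. Means also overlapped for immune cell (7.35 to 7.86 and 7.55 to 8.18), adipocyte (7.52 to 7.99 and 7.70 to 8.36), and pericyte markers (8.26 to 8.73 and 8.50 to 9.16). Of the adipocyte markers 7 of 7 tested had a difference above 0, and 3 (Plin1, Cidec and Retn, by 0.30, 0.33 and 0.19) had all SSKO arrays above the controls, as for 2.45% of genes. Of the pericyte markers 5 of 7 and of the immune cell markers 6 of 9 were above 0, with 1 in each list (Notch3 and Fcer1g) wholly above the controls. Notch3 was also the 1 pericyte marker that limma called higher in luminal than in control basal cells (2.50, adjusted p = 6.45e-07). Of the 7, 5 were called lower there. In SSKO against control basal cells limma called 0 in the immune cell, adipocyte, pericyte, endothelial and fibroblast lists. At an unadjusted p under 0.05 there were 2 adipocyte markers and 2 pericyte markers, all higher. There were 0 immune and 0 endothelial markers, and 2 fibroblast markers, both lower. The 2 erythroid markers tested differed by 0.0046 and 0.018. The part of luminal cells, or of any of these other cells, in the Cited1 and Foxa1 values was not tested.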

How the data were processed

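Total RNA of 10 sorted samples was measured on 1 Affymetrix array each. The authors deposited processed, linear intensity values, 1 for each probe set on each array. Per the submitters' processing notes, Affymetrix Expression Console 1.1 and PLIER 2.0 were used, without saying which did what. Any scaling between arrays is not given in the sources used, and no detection calls were used, so a low level does not show that a gene was silent. The small number of arrays limits the precision.

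Of 28815 probe sets, 21780 had 1 symbol in the platform annotation, 1605 several and 5430 none. Of the single symbols, 21689 were matched to the RefSeq gene table (GRCm38.p6). Values were taken as log2(intensity + 16), which understates changes of dim genes. The dimmest 25% of probe sets (mean under 6.74) were dropped and the brightest probe set per symbol kept. One mean per group was fitted over the 10 arrays by lmFit and eBayes of limma 3.58.1 in R 4.3.3 (7 residual degrees of freedom), with two-sided tests and Benjamini-Hochberg adjustment over 15815 genes. Intervals are for single genes. The fit was tested on simulated data. Figures used matplotlib 3.10.9 in Python 3.11.15.

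The 8 genes and the gene lists were chosen with earlier results of these data known. All 8 are named. From each list, up to 4 genes of smallest p in the SSKO and in the luminal comparison could be named, plus any called in SSKO basal cells, and any paralog. For each of the 8 genes the 2 most like were named, leaving out gene models, clones, olfactory and vomeronasal receptors and small RNAs. Other names (Krt5, Krt14, Trp63, Itgb1, Krt8, Krt18, Muc1, Wnt4, Csn2, genomic neighbours) were added after their values were seen. Alternatives covered normalization, pseudocount, filter, samples in the fit, replicate block, variance model, array weights, the probe sets used and leaving out arrays.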

Additional observations from a re-analysis of the deposited data

Results flagged for a closer look

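In the control basal group of 4 arrays, 40 sets of values were examined for 1 array standing apart from the other 3 by Dixon's ratio (the gap to the nearest array divided by the range) at its 95% critical value, and 3 did so. Chance gives about 1 in 20. R3hdml, the gene most like Cited1, was at 6.59 in control array 3 and between 6.99 and 7.06 in the others, a ratio of 0.855. Maco1, one of the genes most like Gata3, was at 10.27 in control array 1 and between 10.56 and 10.61 in the others, a ratio of 0.851. The mean over the 13 paracrine ligands and receptors was 10.01 in control array 3 and between 9.91 and 9.92 in the others, a ratio of 0.900. None of the 8 regulators had such an array.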

How the results depend on the processing

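In the luminal comparison the 6 calls among the 8 regulators held in all 23 alternatives, with Foxa1 between 5.04 and 5.45, Pgr between 3.95 and 4.30, Cited1 between 3.97 and 4.34, Esr1 between 2.45 and 3.00, Tbx3 between 1.21 and 1.49 and Gata3 between 0.43 and 0.58. In SSKO basal cells Cited1 kept its direction in all 23, between 1.39 and 1.67, and its call in 20, and Foxa1 ranged from 0.66 to 1.29. For SSKO basal minus luminal cells, the difference of Gata3 lost its call without the 3 arrays brightest for endothelial markers (-0.50, adjusted p = 0.0814), and Greb1 passed with the replicate block (-1.39, 0.0159) and without luminal array 1 (-2.04, 0.0463).

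The count of genes called in SSKO basal cells, 6 (5 higher, 1 lower), ranged from 1 to 27 when single arrays were left out. Leaving out SSKO array 3 gave 1, control array 2 gave 2 and SSKO array 2 gave 27. Calls higher ranged from 1 to 27 and calls lower from 0 to 2, and the count of regulators called higher ranged from 0 to 2. Quantile normalization gave 3 calls, 3 higher and 0 lower. Calls lower were also 0 with the dimmest 50% dropped, with only the 2 groups compared, with the replicate block, and with all probe sets tested; at an unadjusted p under 0.05, limma gave 84 to 267 lower genes across these and the left-out arrays that gave 0 calls lower. Without the 3 arrays brightest for endothelial markers limma called 0 genes, 0 higher and 0 lower, and 0 of the regulators (214, 111, 103 and 2 at an unadjusted p under 0.05), and SSKO basal against luminal calls went from 6682 to 4031, with 1865 higher and 2166 lower.

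Small differences changed sign. For Gata3 in SSKO basal cells the value was -0.026 after quantile normalization, -0.045 after centring and -0.065 without the 3 arrays, and -0.085 to 0.057 with single arrays left out. With the replicate block Tnfsf11 was -0.072 and Tbx3 0.050; with single arrays left out they ranged from -0.072 to 0.19 and from -0.19 to 0.071. Greb1 in luminal cells was -0.46 with array weights and -0.16 without the 3 arrays, and -0.52 to 0.91 with single arrays left out. Tnfsf11 in SSKO basal against luminal cells was 0.065 without the 3 arrays and -0.40 to 0.011 with single arrays left out. Greb1 could not be tested with the dimmest 50% dropped. The cause of these changes was not tested.

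Replicate numbers did not meet the rule for pairing, a correlation over 0.1 in every pair. Deviations from group means of same-numbered SSKO and control basal arrays correlated at 0.63, 0.46 and 0.047 over genes, those of luminal and control basal arrays at -0.081, -0.079 and -0.060, and those of SSKO and luminal arrays at 0.088, 0.028 and 0.18. SSKO arrays 1 and 2 correlated best with control arrays 1 and 2, and SSKO array 3 with control array 4. Among luminal arrays, SSKO arrays 1 and 3 correlated best with arrays 1 and 3, and SSKO array 2 with array 1. With the replicate block 1 regulator stayed called in SSKO basal cells, Cited1. Only the control basal group has an array 4. For SSKO against control basal cells the block therefore gave the same differences as leaving that array out, such as -0.072 for Tnfsf11. It did not pair SSKO array 3 with control array 4.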

Other observations

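Genes next to the 8 regulators in the RefSeq annotation were looked up after Ttc6 and Trpc6 had been found among the most like genes, so their values are a description. Of 16 adjacent protein-coding genes, 14 were tested. Of these, 4 were called higher and 5 lower in luminal cells, where 24.6% and 19.7% of all genes were. Ccdc170, next to Esr1, was higher in luminal cells by 1.28, whereas Syne1 on its other side had a difference of -1.13. Arhgap42, which flanks Pgr opposite Trpc6, had a difference of -1.20. Hdac8, next to Cited1, was higher by 1.04, and its other neighbour, the ribosomal gene Rps4x, differed by 0.12 (adjusted p = 0.368). In SSKO basal cells none of the 14 was called by limma; Trpc6 (1.07) and Ttc6 (0.85) had the largest differences of them.

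Of 3 casein genes, 2 spread widely within each group of arrays. The differences of Csn1s1 and Csn2 in SSKO basal cells were -2.18 and -1.89, with SDs over control basal arrays of 2.47 and 2.36, and neither passed. Their SDs were 1.66 and 1.74 over SSKO basal arrays and 2.35 and 1.98 over luminal arrays. Csn3, with an SD of 0.34, was at 11.23, 10.87, 10.67 and 10.43 in control basal and 10.25, 9.47 and 10.32 in SSKO basal arrays, all SSKO arrays lying below the controls. Its difference of -0.79 (SE 0.23, adjusted p = 1.00) did not pass over all genes.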
